A study of Rattus norvegicus with 6 samples.

Results

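The genes described here encode 51 members of the enzyme families that add or remove acetyl and methyl groups on histones. They were picked by name from the known enzyme families, and all 51 were found by gene symbol among the 38445 genes counted. By family, 15 are deacetylases, 9 acetyltransferases, 14 lysine methyltransferases and 13 lysine demethylases. Some of them, such as Hdac6, Hdac10 and Kmt2e, are known for other substrates or for weak activity. RNA-seq was performed on the amygdala of adult male wild-type Sprague Dawley rats. Control rats were injected intraperitoneally with saline and ethanol rats with ethanol at 1 g/kg, and tissue was taken after 1 h. Each group had 3 libraries, and each library held RNA pooled from 2 rats, so the spread between libraries is that between pools and not between single animals. The amygdala was dissected as a whole and holds neurons, glia and vessels, and fewer cells of a type and less RNA per cell cannot be told apart in such samples.

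Acetyl groups on histone tails loosen the contact between histones and DNA and are bound by bromodomain proteins, and they are generally found at active promoters and enhancers. Acetyltransferases place them with acetyl-CoA as donor, and deacetylases take them off, either with a zinc ion (the HDAC family) or with NAD+ (the sirtuins). Methyl groups on lysines are placed with S-adenosylmethionine as donor, and their effect depends on the residue: methylation of lysine 4 of histone H3 (H3K4) marks active promoters and enhancers, and methylation of H3K9 and H3K27 marks repressed chromatin. Demethylases take them off, either with flavin (the LSD pair) or with iron and 2-oxoglutarate (the JmjC family). In rodent models of alcohol exposure the activity and the messenger RNA of several of these enzymes in the amygdala have been studied, which is the question the comparison of ethanol with saline addresses for these genes.

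None of the enzymes passed the test at the level of messenger RNA 1 h after ethanol. Of the 51, 50 had enough reads to be tested, and the quasi-likelihood test of edgeR, with p-values adjusted by Benjamini-Hochberg over all 18141 genes tested, gave an adjusted p below 0.2 for 0 of them, which was also the case for 0% of all genes. At an unadjusted p below 0.05 there were 0 enzymes, beside 4.15% of all genes (1.57% higher and 2.57% lower in ethanol). The likelihood ratio test of edgeR, DESeq2 and limma-voom also gave 0 enzymes at an adjusted p below 0.2 and 0 at an unadjusted p below 0.05. In the same order, these tests gave 77, 74 and 0 of all genes at the adjusted threshold. At the unadjusted threshold they gave 3.82%, 3.56% and 4.3% of all genes. The fold changes were small: the log2 fold change of ethanol over control ranged from -0.14 (Hdac7) to 0.08 (Sirt2), with 22 values above and 28 below 0, and the median was -0.0056 beside 0.0064 over all genes tested.

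The intervals give the range of log2 fold changes that these libraries leave possible for each gene, without adjustment for the number of genes. The 95% interval of the log2 fold change lay between -0.58 and 0.58, which is a 1.5-fold change in either direction, for each of the 50 enzymes tested, and between -0.32 and 0.32 for 46. The exceptions to the narrower limits were Hdac9, Sirt2, Kat2b and Ezh2, and the widest interval was that of Hdac9, from -0.35 to 0.48. Of all genes tested, 73.0% had an interval within the wider limits and 46.6% within the narrower ones, and among the 10866 tested genes in the same range of mean levels (6.76 to 329 counts-per-million, CPM, scaled between libraries) the shares were 95.4% and 72.7%. These intervals do not speak to enzyme activity, to protein or to later times.

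**Figure D1:**
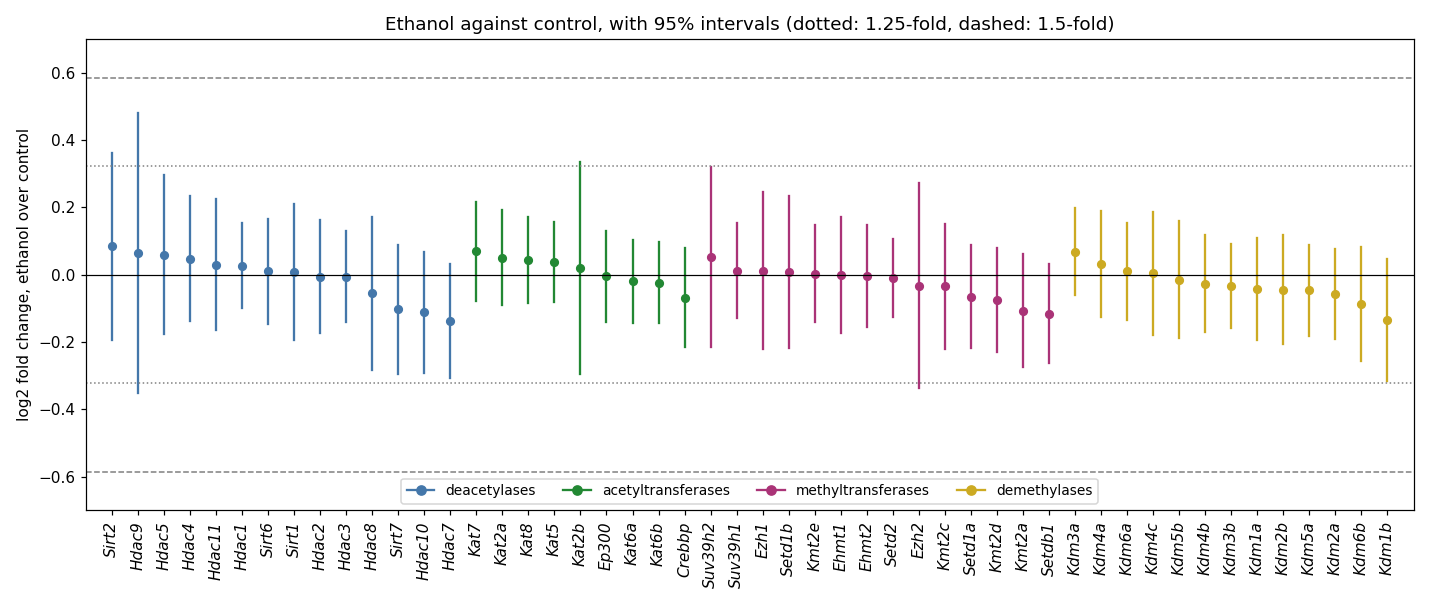
Log2 fold change of ethanol over control for each of the 50 enzymes tested (points) with its 95% interval (bars), grouped by class. Every interval crosses 0, and that of Hdac9, from -0.35 to 0.48, is the widest.

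The sequences around the start sites of these genes shared a high content of CG dinucleotides. Of the 51 genes, 42 were matched by gene identifier to a promoter of RefSeq on the GRCr8 build. Each promoter is a window of 300 bases, with 250 before and 50 after the start. For these genes 56 windows were listed. Only the first listed start of each gene was used, here and for the other promoters, so further starts are not described. The median of the 42 windows was 26.5 CG dinucleotides, beside 12 over 19005 promoters of protein-coding genes and 7 over all 27457 promoters. Only Hdac9, with 2, and Hdac8, with 4, were under the median of the protein-coding genes. The promoters of Hdac2, Kat5 and Hdac8 are printed because Hdac2 is the most abundant class I deacetylase and has a CG-rich start, Kat5 is the enzyme whose ethanol and control libraries did not overlap, and Hdac8, the lowest tested enzyme per annotated exonic length (Ezh2 was lower in CPM), has one of the CG-poor starts. CG dinucleotides are in capitals, and the sequences read 5′ to 3′ along the gene. The windows are chr20:42102877-42103176 on the plus strand for Hdac2 (33 CG dinucleotides and 70.0% G or C), chr1:212332344-212332643 on the minus strand for Kat5 (20 and 60.0%) and chrX:71632816-71633115 on the minus strand for Hdac8 (4 and 41.3%), all in GRCr8, which is not the build of the counts.
Hdac2: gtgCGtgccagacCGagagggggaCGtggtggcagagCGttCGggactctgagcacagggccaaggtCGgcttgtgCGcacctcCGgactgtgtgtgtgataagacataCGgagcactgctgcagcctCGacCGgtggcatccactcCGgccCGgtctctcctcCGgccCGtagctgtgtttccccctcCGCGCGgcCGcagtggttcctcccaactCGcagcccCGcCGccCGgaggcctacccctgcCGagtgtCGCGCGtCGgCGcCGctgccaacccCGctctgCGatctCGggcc
Kat5: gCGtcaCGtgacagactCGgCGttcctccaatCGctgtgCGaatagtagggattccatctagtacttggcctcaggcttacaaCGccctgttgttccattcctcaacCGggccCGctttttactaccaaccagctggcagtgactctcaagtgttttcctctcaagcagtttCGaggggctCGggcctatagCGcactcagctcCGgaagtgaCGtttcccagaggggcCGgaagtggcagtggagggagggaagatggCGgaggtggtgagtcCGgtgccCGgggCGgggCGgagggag
Hdac8: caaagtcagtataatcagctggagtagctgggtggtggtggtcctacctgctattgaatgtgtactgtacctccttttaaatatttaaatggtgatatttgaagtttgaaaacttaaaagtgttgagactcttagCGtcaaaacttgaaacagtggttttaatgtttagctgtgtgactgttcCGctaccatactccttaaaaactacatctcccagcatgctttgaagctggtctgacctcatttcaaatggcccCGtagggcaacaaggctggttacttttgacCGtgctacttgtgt
The GC box letters GGGCGG were found on either strand in 30 of the 42 windows (71.4%), beside 43.1% of the protein-coding and 34.9% of all promoters. The TATA letters TATAAA were found in 0 of the 42, beside 13.1% and 14.3%. The letters ACGTG, the core of hypoxia-response elements, were in 15 (35.7%, beside 20.4% and 19.7%), and the full cyclic-AMP response element TGACGTCA was in 1 (2.38%, beside 2.22% and 1.91%). A GC-rich window holds GC-rich letters more often by its composition, and letters in a window do not show that a factor binds there.

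Among the deacetylases, levels per exonic length spanned the widest range. Levels are given as RPKM, the scaled CPM divided by the exonic length of the gene in kilobases. Hdac11, the only class IV enzyme, was the highest of the enzymes per exonic length: it was at 136, 127 and 125 RPKM in the control and 136, 119 and 141 RPKM in the ethanol libraries. These groups overlapped, and the log2 fold change was 0.03 (95% interval -0.16 to 0.22). The gene spans bases 122781095 to 122798355 of chromosome 4 in Rnor_6.0, with 10 exonic blocks. Sirt2, an NAD+-dependent deacetylase known for its abundance in myelinating cells, came next with 79.0, 65.5 and 72.6 RPKM in controls and 67.8, 72.1 and 90.3 RPKM after ethanol. Its highest value was in ethanol replicate 3 and its lowest in control replicate 2, and the group means of 72.4 ± 6.74 and 76.7 ± 12 RPKM (SD, n = 3 libraries each) differed by less than their spread.

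The class I deacetylases are nuclear enzymes, and Hdac1 and Hdac2 form the catalytic core of the NuRD, Sin3 and CoREST complexes. Hdac2 was at 50.6, 51.6 and 52.2 RPKM in controls and at 54.1, 53.5 and 46.1 RPKM after ethanol. The ethanol libraries lay on both sides of the controls, and the log2 fold change was -0.01 (95% interval -0.17 to 0.16). Hdac1 was lower and more even, at 19.5, 18.8 and 19.0 RPKM in controls and 19.4, 19.3 and 19.6 RPKM after ethanol. Hdac3, the deacetylase of the NCoR and SMRT corepressors, had means of 42.3 ± 1.81 and 42.2 ± 1.51 RPKM (SD, n = 3 each). Hdac8 was the lowest tested enzyme of the class, at 1.13, 1.24 and 1.21 RPKM in controls and 1.07, 1.11 and 1.26 RPKM after ethanol. The annotated exons of Hdac8 add up to 7.58 kb and those of Hdac3 to 1.65 kb, so long exons that are not all used would lower the value of Hdac8 per length.

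The class IIa deacetylases shuttle between nucleus and cytoplasm and bind MEF2 factors. Hdac5 was their most abundant member, with means of 35.8 ± 4.35 RPKM in controls and 37.3 ± 3.38 RPKM after ethanol (SD, n = 3 each). Its annotated exons add up to 3.21 kb and those of Hdac4 to 15.7 kb. In CPM their control means were closer, at 115 for Hdac5 and 81.8 for Hdac4. Hdac4, Hdac7 and Hdac9 had control means between 4.90 and 5.20 RPKM. Hdac7 had the smallest p of the 50 enzymes, 0.0957 before and 1 after adjustment by edgeR. It was at 4.98, 5.46 and 5.14 RPKM in controls and 4.67, 4.46 and 5.04 RPKM after ethanol: ethanol replicates 1 and 2 were below all controls and replicate 3 was not, with a log2 fold change of -0.14 (95% interval -0.31 to 0.03). Hdac10, a polyamine deacetylase of class IIb, went from 5.77 ± 0.417 to 5.34 ± 0.231 RPKM (SD, n = 3 each). The other sirtuins were lower than Sirt2, with control means of 10.7 RPKM for Sirt6, 6.81 RPKM for Sirt7 and 5.69 RPKM for Sirt1, and none of the 3 had groups that stood apart.

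Hdac6, the tubulin deacetylase, could not be measured. It was listed at 0 in all 6 libraries, and a count of 0 would ordinarily allow at most 0.0424 to 0.0479 CPM (3 counts, counting error only). The annotation holds it at a pair of places on chromosome X of Rnor_6.0, once from 15396185 to 15417486 under this symbol and once from 15295372 to 15316673 under another gene identifier without a symbol. The 30 exonic blocks of both entries are laid out alike, both add up to 4167 bases, and the other entry had 0 counts in 5 libraries and 1 in ethanol replicate 3. Reads that fit several places were left out of the counts, so these zeros are not a measure of Hdac6 expression.

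Among the acetyltransferases, the MYST enzyme Kat7 and the GNAT enzyme Kat2a were the most abundant. Kat7, which acetylates histone H3 as part of the HBO1 complexes, was at 37.8, 38.8 and 36.5 RPKM in controls and 40.5, 41.2 and 36.9 RPKM after ethanol. Ethanol replicates 1 and 2 were above the controls and replicate 3 was among them, with a log2 fold change of 0.07 (95% interval -0.08 to 0.22). Kat2a, the GCN5 subunit of SAGA and ATAC, was at 35.5, 35.0 and 34.7 RPKM in controls and 35.7, 34.4 and 38.7 RPKM after ethanol. Its paralog Kat2b was lower in every library, at 5.65, 4.59 and 5.81 RPKM in controls and 4.79, 5.03 and 6.44 RPKM after ethanol.

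Kat5, the catalytic subunit of the TIP60 complex, was the only enzyme of the 50 whose groups did not overlap. It was at 29.1, 29.3 and 28.7 RPKM in controls and at 29.3, 30.5 and 29.6 RPKM after ethanol. The lowest ethanol and the highest control library were nearly level, and the log2 fold change was 0.04 (95% interval -0.08 to 0.16; adjusted p = 1 by edgeR). For this split an exact permutation test, 2-sided, returns p = 0.1, and no smaller p is possible with 3 libraries against 3. This was 1 of 50 enzymes (2%), beside 8.85% of all genes tested, of which 3.66% were higher and 5.19% lower in ethanol. Scaled by library size alone, its groups overlapped. In Rnor_6.0 the gene spans bases 220967795 to 220974596 of chromosome 1, with 12 exonic blocks.

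Ep300 and Crebbp, the coactivators p300 and CBP, were in the middle range of all genes tested per exonic length, at percentiles 57.0 and 46.7. Their annotated exons add up to 9.26 and 10.3 kb. Crebbp was the lowest acetyltransferase per exonic length, at 4.24, 4.51 and 4.42 RPKM in controls and 4.45, 4.03 and 4.08 RPKM after ethanol. Its log2 fold change was -0.07 (95% interval -0.22 to 0.08). Ep300 was at 7.26, 7.80 and 7.01 RPKM in controls and 7.24, 7.48 and 7.28 RPKM after ethanol. Kat8, the H4K16 acetyltransferase, had a control mean of 24.1 RPKM, and Kat6a and Kat6b had 8.72 and 7.97 RPKM. Summed over the 9 acetyltransferases, the level was 160.6, 160.7 and 157.6 RPKM in controls and 162.9, 163.6 and 165.0 RPKM after ethanol. The groups of this sum did not overlap, with means of 159.6 ± 1.76 and 163.9 ± 1.06 RPKM (SD, n = 3 each), and the sum was looked at after the values were known and was not tested. Scaled by library size alone, the groups of the sum overlapped. The sums of the other classes overlapped between the groups: the deacetylases were at 387 to 413 RPKM in controls and 388 to 423 after ethanol, the methyltransferases at 148.7 to 162.1 and 149.7 to 152.1, and the demethylases at 130.8 to 137.9 and 128.0 to 133.7. So did the sum over all the enzymes, which was 825 to 854 RPKM in controls and 833 to 868 after ethanol. Kat7, Kat2a, Kat5 and Kat8 hold most of the sum over the acetyltransferases.

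**Figure D2:**
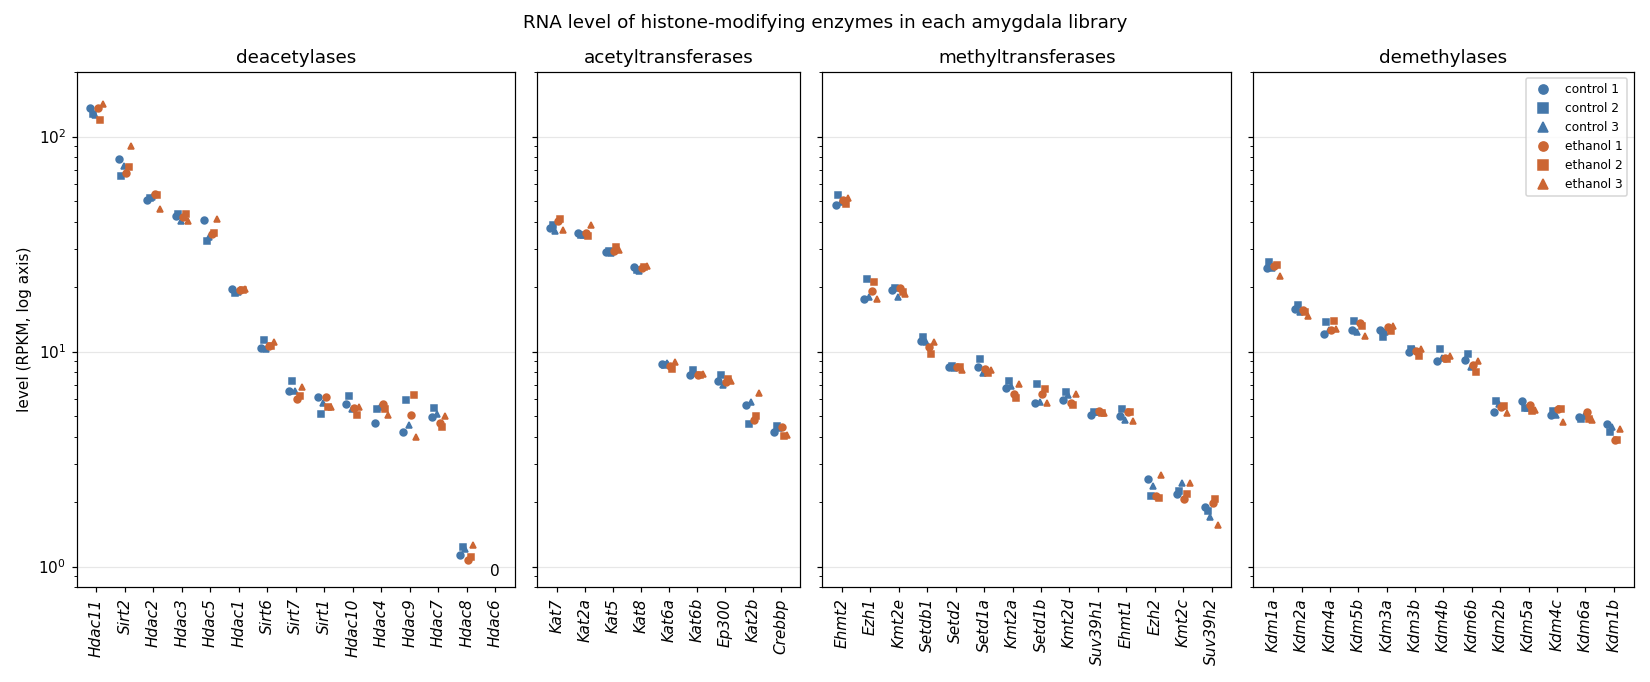
Level of each enzyme in RPKM on a log axis, with 1 point for each of the 3 control and 3 ethanol libraries, grouped by class. Hdac11 is the highest, at 119 to 141 RPKM, Hdac8 is the lowest tested enzyme, at 1.07 to 1.26 RPKM, and Hdac6 is listed at 0.

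Among the methyltransferases, Ehmt2 stood far above the rest. Ehmt2, or G9a, forms a heterodimer with Ehmt1 (GLP) that places mono- and dimethylation on H3K9. It was at 48.3, 53.3 and 49.9 RPKM in controls and 50.5, 48.4 and 52.0 RPKM after ethanol, so that the groups overlapped fully, and the log2 fold change was 0.00 (95% interval -0.16 to 0.15). Ehmt1 was at 5.01, 5.42 and 4.82 RPKM in controls and 5.24, 5.24 and 4.76 RPKM after ethanol. The trimethylating enzyme Suv39h1 was at 5.09, 5.24 and 5.21 RPKM in controls and 5.31, 5.18 and 5.18 RPKM after ethanol, with the lowest spread of all 50 enzymes (within-group coefficient of variation 1.5%). Its paralog Suv39h2 was the lowest methyltransferase, at 1.89, 1.80 and 1.71 RPKM in controls and 1.97, 2.06 and 1.57 RPKM after ethanol. Setdb1, which silences retroelements with TRIM28, had means of 11.3 ± 0.346 and 10.5 ± 0.643 RPKM (SD, n = 3 each) and a log2 fold change of -0.12 (95% interval -0.26 to 0.03).

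Ezh1 and Ezh2 are the alternative catalytic subunits of Polycomb repressive complex 2, which methylates H3K27. Ezh1, known as the form of non-dividing cells, was at 17.6, 21.8 and 18.0 RPKM in controls and 19.2, 21 and 17.7 RPKM after ethanol. Ezh2, the form of dividing cells, was at 2.55, 2.13 and 2.37 RPKM in controls and 2.12, 2.09 and 2.67 RPKM after ethanol. The groups of both genes overlapped, and the 3 libraries with the most Ezh1 were those with the least Ezh2. Of the 7 enzymes of H3K4 and H3K36, Kmt2e, a SET protein with weak or no known methyltransferase activity, had the highest control mean (19.0 RPKM). Setd1a, Setd1b, Setd2, Kmt2a and Kmt2d had control means from 6.23 to 8.56 RPKM. Kmt2c had 2.29 RPKM, but 22 of its 79 exonic blocks are laid out alike a second time within its own entry on chromosome 4, so reads from them could be lost and its level is an underestimate if they are.

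Among the demethylases, Kdm1a (LSD1), a flavin enzyme of the CoREST complex that acts on H3K4, was the most abundant. It was at 24.4, 26.1 and 24.4 RPKM in controls and 25.1, 25.2 and 22.5 RPKM after ethanol. The log2 fold change was -0.04 (95% interval -0.20 to 0.11), and the lowest library was ethanol replicate 3. Its relative Kdm1b was the lowest demethylase, at 4.63, 4.23 and 4.45 RPKM in controls and 3.88, 3.89 and 4.36 RPKM after ethanol. Ethanol replicates 1 and 2 of Kdm1b were below all controls and replicate 3 was among them, and the log2 fold change was -0.14 (95% interval -0.32 to 0.05).

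The 11 JmjC demethylases were within a narrow band, with control means from 4.94 RPKM (Kdm6a) to 15.8 RPKM (Kdm2a). Kdm6b (JMJD3), an H3K27 demethylase, was at 9.14, 9.72 and 8.47 RPKM in controls and 8.66, 8.04 and 9.03 RPKM after ethanol, with a log2 fold change of -0.09 (95% interval -0.26 to 0.08). Its X-linked relative Kdm6a (UTX) was at 4.94, 4.86 and 5.01 RPKM in controls and 5.23, 4.85 and 4.82 RPKM after ethanol. Kdm3a, an H3K9 demethylase known as a target of hypoxia signalling, had 12.2 ± 0.464 and 12.8 ± 0.363 RPKM (SD, n = 3 each). Kdm2b, Kdm3b, Kdm4a, Kdm4b, Kdm4c, Kdm5a and Kdm5b had log2 fold changes between -0.05 and 0.03, and that of Kdm2a was -0.06. By class, 4 of 13 demethylases had a log2 fold change above 0, with a median of -0.03, beside 5 of 14 methyltransferases (-0.01), 5 of 9 acetyltransferases (0.02) and 8 of 14 tested deacetylases (0.01).

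The ratio of closely related enzymes within a library was compared as well, since scaling between libraries does not enter it. Hdac2 exceeded Hdac1 by 2.35 to 2.78 times per exonic length over the 6 libraries, with means of 2.7 ± 0.0921 in controls and 2.64 ± 0.244 after ethanol (SD, n = 3 each). The ratio of Ehmt2 to Ehmt1 was 9.24 to 10.9, that of Ezh1 to Ezh2 was 6.61 to 10.2 and that of Kat2a to Kat2b was 5.98 to 7.62. Suv39h1 exceeded Suv39h2 by 2.51 to 3.30 times, Kdm6b exceeded Kdm6a by 1.66 to 2.00 times and Ep300 exceeded Crebbp by 1.59 to 1.86 times. In every library the same member of each pair was the higher one, and for all 7 pairs the ratios of the groups overlapped. The annotation holds 17 copies or pseudogenes of Hdac1, which together had 46 to 72 reads per library, and 1 each of Hdac2 (38 to 75 reads), Kat2b (19 to 47) and Setdb1 (91 to 145). The tested enzymes had at least 391 reads in each library, and reads that fit both an enzyme and its copy were left out of the counts, so the levels of these genes may be understated.

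**Figure D3:**
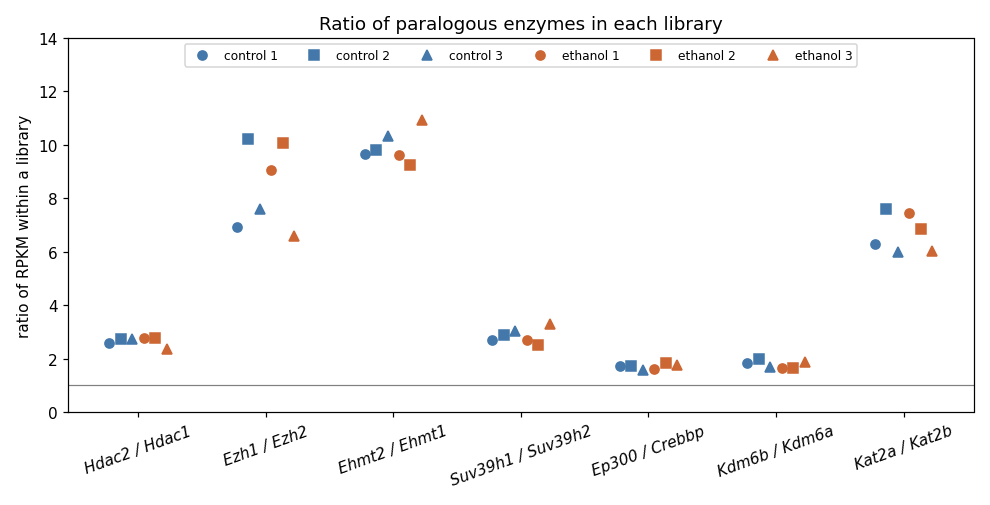
Ratio of RPKM within 7 pairs of related enzymes on a linear axis, where 1 marks equal levels, with 1 point for each control and ethanol library. The same enzyme is the higher one in all 6 libraries of every pair, from 1.59 to 1.86 times for Ep300 over Crebbp to 9.24 to 10.9 times for Ehmt2 over Ehmt1.

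A few enzymes varied between libraries more than the others, and did so within both groups. The median within-group coefficient of variation was 5.43% over the 50 enzymes, beside 6.71% over tested genes in the same range of levels, and it was highest for Hdac9 (20.4%). Hdac9 was at 4.23, 5.92 and 4.55 RPKM in controls and 5.05, 6.31 and 4.03 RPKM after ethanol. The 8 oligodendrocyte markers (such as Mbp and Mog) had summed levels of 5093, 2145 and 3714 CPM in controls and 2662, 3543 and 6548 after ethanol, so the libraries differed in them within each group. Sirt2 and Kat2b were highest in ethanol replicate 3, where these markers were also highest, and lowest in control replicate 2, where the markers were lowest. The 7 astrocyte markers had the same extremes, with summed levels of 7257 CPM in ethanol replicate 3 and 5057 in control replicate 2. The 6 pan-neuronal markers were lowest in ethanol replicate 3 (5369 CPM). Hdac9 and Ezh1 were low in control replicate 1 and ethanol replicate 3, the libraries with the most oligodendrocyte marker RNA. Sirt2, Kat2b, Hdac9 and Ezh1 were set beside the oligodendrocyte markers after their values were seen. Ezh2 (coefficient of variation 11.9%) and Hdac5 (10.7%) varied more than Ezh1 (10.6%) but were not set beside the markers. The part of oligodendrocyte or astrocyte RNA in the levels of these enzymes was not tested.

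**Figure D4:**
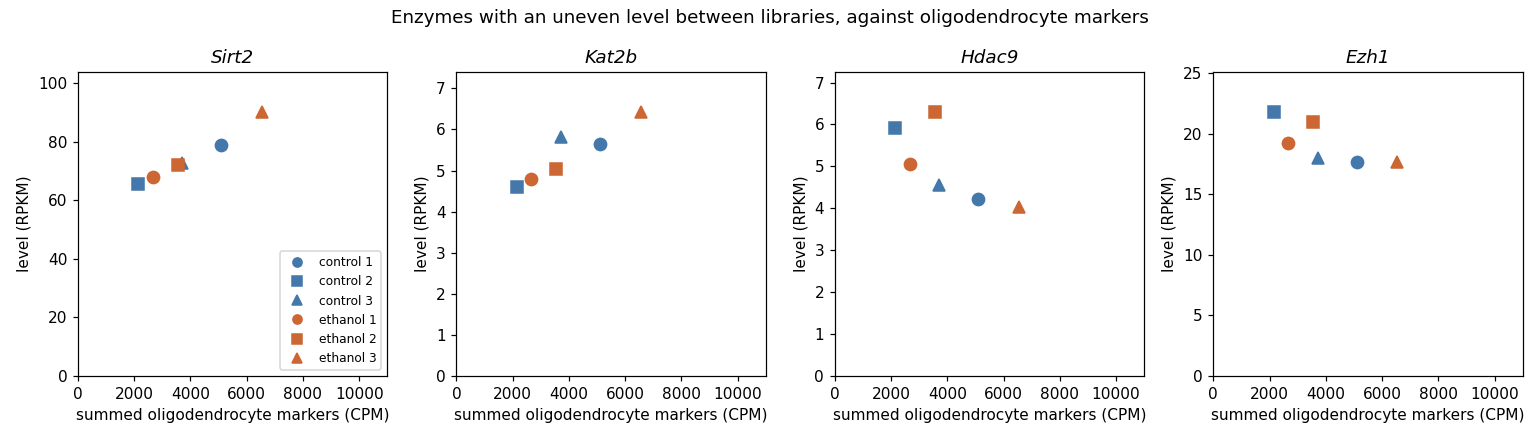
Level of Sirt2, Kat2b, Hdac9 and Ezh1 in RPKM against the summed level of 8 oligodendrocyte markers in CPM, with 1 point for each of the 3 control and 3 ethanol libraries. Ethanol replicate 3 has the highest marker level (6548) and the highest Sirt2 and Kat2b, and control replicate 2 the lowest marker level (2145) and the lowest of both.

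Ethanol replicate 3 stood apart from the other ethanol libraries in choroid plexus markers, but not in ependymal and cilia markers. The summed level of 10 choroid plexus markers (such as Ttr and Kcnj13) was 523, 1133 and 898 CPM in controls and 12.8, 14.1 and 485 after ethanol. That of the 8 ependymal and cilia markers was 107, 147 and 124 CPM in controls and 92.3, 98.9 and 98.4 after ethanol. Without ethanol replicate 3, 4 enzymes had an unadjusted p below 0.05, each of them lower after ethanol. Without that library the log2 fold change was -0.17 for Kmt2a, -0.16 for Setdb1, -0.19 for Hdac7 and -0.19 for Kdm1b. The adjusted p of the 4 by edgeR was then between 0.484 and 0.545, above the threshold. These were 4 of 50 enzymes (8%), beside 8.87% of all genes in the same comparison (4.4% lower), and 0 enzymes had an adjusted p below 0.2. The part of choroid plexus or oligodendrocyte RNA in this difference between the fits was not tested.

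Other genes of the same pathways were read from lists chosen by function. Of 32 further enzymes of these families, 43 partner subunits of their complexes and 20 readers of acetylated or methylated histones, 0 had an unadjusted p below 0.05 in either direction and 0 had an adjusted p below 0.2. Eed and Suz12, core subunits of Polycomb repressive complex 2, had log2 fold changes of -0.13 (95% interval -0.28 to 0.03) and -0.02 (-0.16 to 0.12). Groups did not overlap for 5 of the 43 partners (11.6%), near the 8.85% of all genes tested. Eed was among them, at 21.3 ± 0.711 CPM in controls and 19.5 ± 0.734 CPM after ethanol (SD, n = 3 each). Wdr5, which joins the H3K4 methyltransferase complexes, had a log2 fold change of 0.02 (95% interval -0.13 to 0.16).

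Of 22 genes for the supply of acetyl-CoA and methyl donors, 21 could be tested and 1 had an unadjusted p below 0.05 (4.76%), a share near the 4.15% of all genes tested. It was Acat2, an acetyl-CoA acetyltransferase of the cytosol, which was at 17.2, 17.6 and 17.4 CPM in controls and 18.7, 20.8 and 20.1 after ethanol. The groups did not overlap, with a log2 fold change of 0.19 (95% interval 0.03 to 0.35; adjusted p = 1 by edgeR). Acss2, which makes acetyl-CoA from acetate, the product of ethanol breakdown, went from 66.9 ± 1.99 to 66.1 ± 5.29 CPM (SD, n = 3 each; log2 fold change -0.02, 95% interval -0.18 to 0.15). Acly, which makes it from citrate, was at 301.9 ± 5.48 and 301.7 ± 9.15 CPM (SD, n = 3 each).

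Marker levels were read in the same libraries, and 0 matched genes in any list were at 0 in every library. No other brain region is among these libraries, so the markers cannot tell the amygdala from other regions. The 15 amygdala neuron markers summed to 1715 to 2168 and the 6 pan-neuronal markers to 5369 to 6517 CPM. At an unadjusted p below 0.05, 5 of 9 tested choroid plexus and 6 of 8 ependymal markers were lower, and 1 of 7 microglial (Tmem119) and 1 of 15 amygdala neuron markers (Tbr1) were higher. Of the 8 oligodendrocyte, 7 astrocyte, 6 endothelial and 6 pan-neuronal markers, 0 passed. None of these genes had an adjusted p below 0.2. The libraries held 62576504 to 70755739 assigned reads, of which the 51 enzymes took 0.338% to 0.361%, and the groups overlapped in depth. Within a group, no library was a repeat of another: the chi-square of each pair, divided by its degrees of freedom, was 14.3 to 67.6. Pairs of a control and an ethanol library were not compared in this way.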

How the data were processed

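The authors prepared strand-specific mRNA libraries, read 100 nt from one end, and aligned quality-trimmed reads to Rnor_6.0. The submitters' processing notes name STAR 2.7.0f and Subread 1.6.3. The values they deposited are raw counts, made per the file headers with featureCounts at strand setting 2 over all exons of each NCBI gene. Reads that fit several places or overlap several genes were not counted. The values are not normalized, and reads carry no molecular identifiers, so a floor of 3 counts covers counting error only.

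Symbols were matched through a RefSeq gene table for 29322 of 38445 identifiers. Counts were analysed in R 4.3.3 with edgeR 4.0.16: filterByExpr (minimum count 10), TMM factors (0.976 to 1.01), the quasi-likelihood F test of 3 ethanol against 3 control libraries, and Benjamini-Hochberg adjustment over 18141 genes. The threshold of 0.2 on the adjusted p is that of the study, whose test is not given in the sources used here, though the submitters' notes name edgeR and limma. Intervals are the log2 fold change ± the t quantile times its standard error, which includes the spread between libraries. RPKM divides TMM-scaled CPM by the exonic length in the files. The scripts were tested on simulated data.

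The same numbers in both groups do not mark shared rats, since each rat received either saline or ethanol. The labels name no shared batch, so the libraries were not paired. Deviations of same-numbered libraries correlated by 0.0271, 0.387 and 0.210 over 14241 genes, which cannot show whether a batch was shared. P-values measure the spread between pools of 2 rats.

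All 51 enzymes are accounted for. Values per library are given for enzymes with p below 0.05 or groups that do not overlap, the highest and lowest of each class, 7 pairs of paralogs, and Hdac2, Ehmt2, Crebbp, Kdm6b and Kdm1a; others are named where a comparison touches them, some after their values were seen. Of the related lists, at most 4 genes a list and Acss2, Acly, Wdr5, Eed and Suz12 could be named. The enzymes and lists were chosen with earlier results of these data known. Of 185 list genes, 184 were matched, and 1 further marker is not reported here. Alternatives were DESeq2 1.42.0, limma-voom (limma 3.58.1), the edgeR likelihood ratio test, other scalings and filters, a replicate block and leaving out each library. The chromatin accessibility data of the study were not used here.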

Additional observations from a re-analysis of the deposited data

How the results depend on the processing

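The count of enzymes with an adjusted p below 0.2 was 0 in every alternative run. For the whole set of genes tested it was 77 with edgeR's likelihood ratio test and 74 with DESeq2, and leaving out 1 library gave 0 to 83, with 83 without ethanol replicate 3 and 4 without ethanol replicate 1. Enzymes with an unadjusted p below 0.05 numbered 0 to 4 when 1 library was left out. Enzymes whose groups did not overlap numbered 2 with library size alone (Kdm2a and Setd2, not Kat5), 2 with DESeq2 size factors (Kat5 and Setdb1) and 3 to 14 when 1 library was left out, beside 9.33%, 8.86% and 14.3% to 27.2% of all genes. The 14 came without ethanol replicate 3, which also gave the 27.2%. The median of the acetyltransferases was 0.0012 to 0.051 when 1 library was left out and -0.005 with library size alone. That of the deacetylases was -0.021 to 0.0059 and that of the methyltransferases -0.046 to 0.0099 when 1 library was left out. For these 3 classes the sign of the median was not the same in all runs. The median of the acetyltransferases was below 0 only with library size alone. That of the demethylases was -0.057 to -0.0083 when 1 library was left out. Library size alone moved the median of all genes to -0.02 and that of the enzymes to -0.03. Without a filter, 8 choroid plexus and 2 amygdala neuron markers had an unadjusted p below 0.05.

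With the replicate number as a block, 0 enzymes had an unadjusted p below 0.05, beside 5.59% of all genes, and the median of the enzymes was -0.005. Control replicate 1 correlated best with ethanol replicate 3 (0.304), and such correlations cannot show whether a batch was shared. Of the 50 enzymes, 28 changed sign in at least 1 alternative, none of them called in any. By more than 1 standard error, Ezh1 (0.12) and Setd1b (0.11) moved without control replicate 2, and Sirt2 (-0.05) and Kat2b (-0.12) without ethanol replicate 3. The causes were not tested. With 3 libraries a group, changes smaller than the intervals given were not detectable at this depth.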
